A study of Mus musculus with 3 samples.

Results

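The transcripts described here encode granule proteases of mast cells and their relatives, together with a pair of receptors: Mcpt1, Mcpt2, Mcpt4, Mcpt8, Cma1, Cpa3, Tpsb2, Tpsab1, Kit and Fcer1a. They were taken by symbol from the platform's annotation, and all 10 were measured, out of 19938 named genes. Each had 1 probe set of its own. RNA came from healing back skin of C57Bl/6 mice aged 6 weeks, in which a full-thickness wound of 1.5 cm2 had removed epidermis and dermis, with no further treatment or genetic change given in the labels. Wound dermis and any epidermis over it were collected 10, 12 or 14 days later, keeping clear of unwounded skin and of follicles at the edge, per the labels. Each day was a pool of 3 mice on 1 one-colour array, so every difference compares single pools, has no replicate error and was not tested. Values are log2 expression, and a log2 difference of 1 is a 2-fold difference. The basal keratin genes Krt5 and Krt14 lay between 13.2 and 13.3 on the 3 arrays and the collagen genes Col1a1 and Col3a1 between 13.0 and 13.5, so both labelled tissue layers were represented.

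Mast cells are tissue-resident immune cells of the dermis that store proteases, histamine and heparin in granules bound to the proteoglycan serglycin. They depend on the receptor tyrosine kinase Kit and its ligand for survival, and IgE bound to the high-affinity receptor, whose alpha chain is Fcer1a, triggers degranulation. Connective tissue mast cells of mouse skin are known for the chymases Mcpt4 and Cma1, the tryptase Tpsb2 and the carboxypeptidase Cpa3, whereas Mcpt1 and Mcpt2 are known from mucosal mast cells and Mcpt8 from basophils. In a bulk sample, fewer cells of a type and less RNA per cell cannot be told apart.

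The 5 members that encode chymases and granzyme-related proteases lie in 1 run of genes on chromosome 14 in the RefSeq table of GRCm38.p6. Their order is Cma1, Mcpt1, Mcpt2, Mcpt4 and Mcpt8. Cma2, Mcpt9 and the pseudogenes Mcpt-ps1 and Gm5801 lie between these members and were not measured. Cathepsin G and a row of granzyme genes follow the 5 members. Tpsab1 and Tpsb2 are direct neighbours on chromosome 17. RefSeq lists Tpsab1 in this strain's assembly as a transcribed pseudogene and the other 9 genes as protein coding. The table of gene starts held promoters of 7 members, namely Cma1, Cpa3, Fcer1a, Kit, Mcpt1, Mcpt4 and Mcpt8. Mcpt4, Cma1 and Cpa3 were higher on each later day. Mcpt1, with a promoter much like that of Mcpt4, held 1 value throughout, at a level that may be background. For this reason the 250 bases before the first listed start of Mcpt4, Mcpt1, Cma1 and Cpa3 are shown. They are RefSeq sequences of GRCm38.p6, at chr14:56062311-56062560 on the minus strand, chr14:56017714-56017963 on the plus strand, chr14:55944676-55944925 on the minus strand and chr3:20242182-20242431 on the minus strand, read 5′ to 3′ in the direction of transcription. Capitals mark the letters GATAA on either strand (TTATC as printed for the other strand), which hold the core bound by GATA factors, a motif picked after the sequences were seen.
Mcpt4: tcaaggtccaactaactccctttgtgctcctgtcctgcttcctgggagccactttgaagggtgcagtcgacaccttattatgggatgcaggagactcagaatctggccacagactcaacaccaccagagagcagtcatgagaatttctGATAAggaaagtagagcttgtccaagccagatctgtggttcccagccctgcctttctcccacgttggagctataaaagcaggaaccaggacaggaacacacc
Mcpt1: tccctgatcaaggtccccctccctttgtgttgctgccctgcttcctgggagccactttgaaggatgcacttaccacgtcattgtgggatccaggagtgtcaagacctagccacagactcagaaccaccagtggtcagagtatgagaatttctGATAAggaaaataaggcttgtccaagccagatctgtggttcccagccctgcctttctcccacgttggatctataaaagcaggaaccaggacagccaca
Cma1: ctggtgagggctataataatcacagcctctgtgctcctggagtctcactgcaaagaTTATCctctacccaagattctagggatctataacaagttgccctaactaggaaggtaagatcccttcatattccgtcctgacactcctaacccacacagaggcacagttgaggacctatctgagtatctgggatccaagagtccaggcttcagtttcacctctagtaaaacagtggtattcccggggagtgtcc
Cpa3: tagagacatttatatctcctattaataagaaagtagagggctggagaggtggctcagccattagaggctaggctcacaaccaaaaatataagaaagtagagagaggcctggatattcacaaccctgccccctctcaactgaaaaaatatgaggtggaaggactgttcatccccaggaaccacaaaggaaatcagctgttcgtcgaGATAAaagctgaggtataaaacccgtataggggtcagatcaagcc

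Aligned end to end, the windows of Mcpt4 and Mcpt1 shared 209 identical bases, which is 86.4% of the 242 aligned positions, and the next pair, Mcpt1 and Mcpt8, shared 145. Both carried the GATAA letters, beginning 102 bases before the start in Mcpt4 and 98 in Mcpt1. The letters were found in 5 of the 7 member promoters, those of Cma1, Cpa3, Fcer1a, Mcpt1 and Mcpt4, and in 22.6% of all 32851 windows of that length in the table. The letters TATAAA on either strand stood in 4 of the 7, in Cpa3, Fcer1a, Mcpt1 and Mcpt4, against 12.4% of all windows, and 0 of these matches overlapped a GATAA match. GATAA was picked after the sequences were seen, and the windows of Mcpt4 and Mcpt1, being so alike, are not separate cases. Each member gave 1 window, while the 32851 windows hold every listed start, so these shares are no test. These matches describe the letters, and their part in the values was not tested. Mcpt1 carried both motifs as Mcpt4 did, but its value of 5.87 lay below the lower quartile of every array, where the level may be background.

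Across the members, 5 were higher on each later day (Mcpt4, Cpa3, Tpsb2, Cma1 and Fcer1a), 1 was lower on each later day (Mcpt2), 3 held exactly equal values (Mcpt1, Mcpt8 and Kit) and Tpsab1 differed only on day 14. Among all 19938 genes, 12.6% were higher on each later day, 18.1% were lower on each later day and 25.7% were equal on all 3 arrays. Mcpt4, Cma1, Cpa3 and Tpsb2, named above for connective tissue mast cells, were among the 5 higher ones, while the tryptase gene Tpsab1 and Kit were not. Of the mucosal and basophil proteases, Mcpt2 was lower. Mcpt1 and Mcpt8 lay below the lower quartile of every array, where the level may be background, so a contrast with these proteases rests on Mcpt2.

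**Figure D1:**
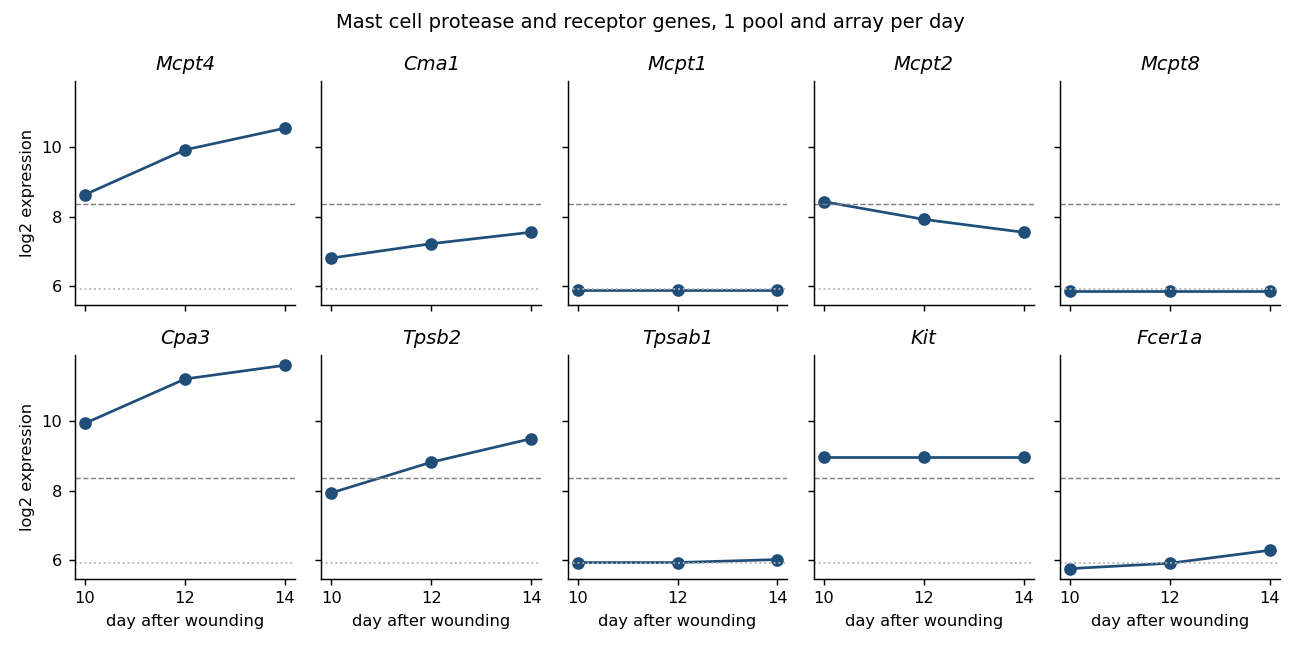
Log2 expression (vertical axis) of each gene against day after wounding (horizontal axis), with 1 point per day from 1 pool of 3 mice; the dashed line is the level filter of 8.36 and the dotted line the mean of the arrays' lower quartiles over probe sets. Mcpt4, Cpa3 and Tpsb2 climb through all 3 days, Mcpt2 declines from 8.43 to 7.54, and Mcpt1, Mcpt8 and Kit are flat.

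Among the chymases, Mcpt4, the main chymase of skin mast cells, measured 8.63 on day 10, 9.93 on day 12 and 10.6 on day 14. Day 10 was the lowest and day 14 the highest, a 3.79-fold difference between them. Of the log2 difference of 1.92, 67.3% was already present on day 12. Only 37 of the 9969 genes above the level filter had a larger increase from day 10 to day 14. Cma1, another chymase and the first gene of the cluster, measured 6.80, 7.21 and 7.55 on the same days. It followed the same order of days with a smaller difference of 0.75, or 1.68-fold, and it stayed below the filter on each array. Of all 19938 genes, 2.12% had an increase at least as large.

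Mcpt2 ran the other way. This chymase-like protease gene of mucosal mast cells measured 8.43 on day 10, 7.92 on day 12 and 7.54 on day 14, and passed the filter by its day 10 value alone. It was lower by 0.51 on day 12 and by 0.38 more on day 14, which makes it 1.85-fold lower than on day 10. Of the genes above the filter, 1.47% were lower by at least as much. The day 10 value that passed the filter is also the start of this difference, so that share depends on it. Without the filter, 99.1% of all genes had a day 14 minus day 10 difference at least as high as that of Mcpt2. Mcpt1, its neighbour and fellow mucosal protease, held 5.87 on all 3 days, and Mcpt8, the basophil protease, held 5.85. Both stood below the lower quartile of every array (5.91 to 5.92), where the level may be background, and detection was not given. After other scalings their differences lay between −0.02 and 0.02. The Mcpt genes are close relatives, and how much signal their probe sets share was not tested.

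Carboxypeptidase A3, encoded by Cpa3, trims peptides and is stored with the chymases. Its gene measured 9.95, 11.2 and 11.6 on days 10, 12 and 14. The day 12 value was 2.43-fold above day 10, and by then 76.3% of the log2 difference of 1.68 between day 10 and day 14 was present. The day 14 value was 3.20-fold above day 10, and 61 genes above the filter had a larger increase.

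The tryptase gene Tpsb2 measured 7.93 on day 10, 8.82 on day 12 and 9.50 on day 14, and lay above the filter on the last 2 of these days. It was 1.85-fold higher on day 12, just short of 2-fold, and 2.97-fold higher on day 14. Its second step was its most unusual one: with a log2 difference of 0.68 between day 12 and day 14, it ranked 16th from the top of the 9969 genes. Mcpt4 ranked 24th there with 0.63, and Cpa3 was at 109 with 0.40. The neighbouring Tpsab1 measured 5.92, 5.92 and 6.00, near the lower quartile of the arrays, and differed by 0.09 at most.

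Kit, the receptor for stem cell factor, measured exactly 8.97 on each of the 3 arrays, well inside the measured range. Other scalings moved its differences to between −0.01 and 0.04, so its direction depended on the scaling. Exact ties were common in this table, and 13.4% of the genes above the filter held 1 value on all arrays, so an equal value is not a precise measure of no difference. Fcer1a, the IgE-binding chain, measured 5.74, 5.90 and 6.27. It was below the lower quartile on days 10 and 12, where the level may be background, and differed by 0.53 between day 10 and day 14. Of all genes, 3.61% had an increase at least as large from day 10 to day 14.

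**Figure D2:**
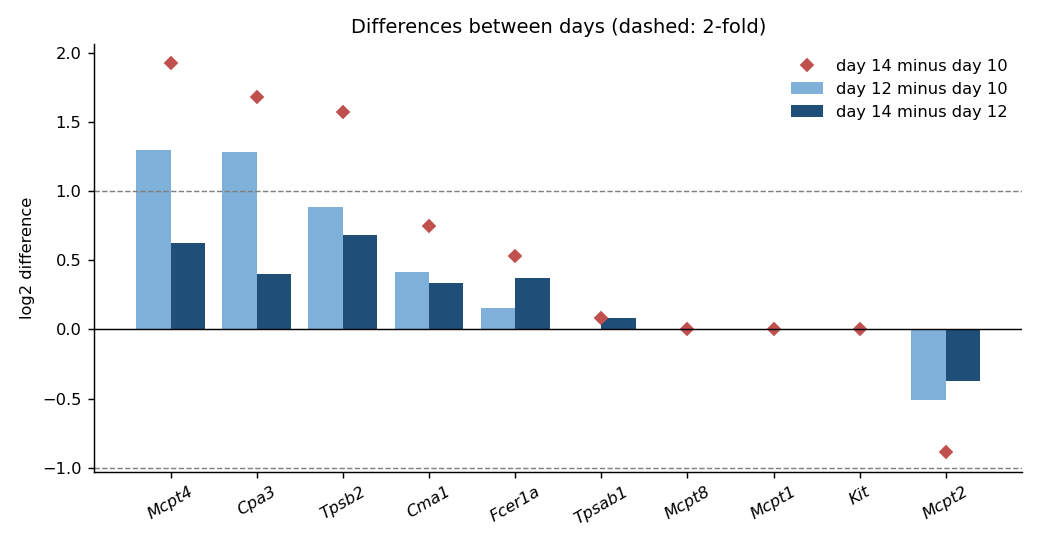
Log2 differences between days (vertical axis) for the 10 genes (horizontal axis), ordered by day 14 minus day 10; light bars are day 12 minus day 10, dark bars day 14 minus day 12, diamonds their sum, and dashed lines mark 2-fold. Mcpt4, Cpa3 and Tpsb2 exceed 2-fold in sum, and Mcpt2, at −0.89, is the one gene below 0.

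On day 12 against day 10, 2 of the 10 genes, Mcpt4 and Cpa3, were at least 2-fold higher, and 0 were 2-fold lower. Among the 9969 genes above the filter, the share past 2-fold was 1.48% upward and 0.181% downward. The median difference of the 10 genes was 0.08, with 5 higher, 1 lower and 4 equal, beside a median of 0.00 over all genes. On day 14 against day 12, none of the 10 genes reached 2-fold in either direction, and among the genes above the filter 0.0301% were 2-fold higher and 0.361% lower. The median was 0.21, with 6 higher, 1 lower and 3 equal, again beside 0.00. On day 14 against day 10, 3 of the 10 genes (Mcpt4, Cpa3 and Tpsb2) were at least 2-fold higher and 0 were 2-fold lower, against 2.24% and 0.913% of the genes above the filter. The median was 0.31, with 6 higher, 1 lower and 3 equal, beside 0.00 over all genes. Above the filter, 29.6% of genes were higher and 53.8% lower between these days. Without the filter, as for the 10 genes, 34.9% of all 19938 genes were higher and 35.6% lower. For day 12 against day 10 the shares over all genes were 25.5% and 34.5%, and for day 14 against day 12 they were 32.7% and 30.8%. Mcpt4, Cpa3 and Tpsb2 passed the level filter, as did Mcpt2 and Kit, while Mcpt1, Mcpt8, Cma1, Tpsab1 and Fcer1a did not. Passing rested on the highest array, and Tpsb2 was below 8.36 on day 10 and Mcpt2 on days 12 and 14. The 10 genes were counted without the filter. With all 19938 genes taken likewise, 1.25% were at least 2-fold higher from day 10 to day 14 and 0.512% lower. From day 10 to day 12 these shares were 0.787% and 0.130%, and from day 12 to day 14 they were 0.0552% and 0.196%.

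**Figure D3:**
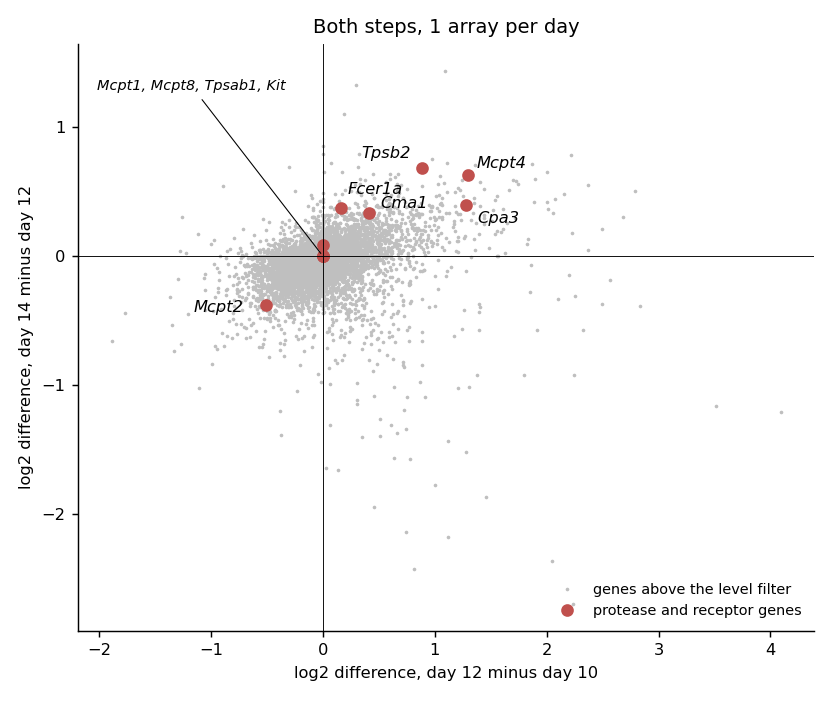
Log2 difference of day 12 minus day 10 (horizontal axis) against day 14 minus day 12 (vertical axis) for the 9969 genes above the level filter (grey) and the 10 protease and receptor genes (red), with 1 array per day. Mcpt4, Cpa3, Tpsb2, Cma1 and Fcer1a lie in the upper right, where both steps are positive, and Mcpt2 lies in the lower left.

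As a yardstick for these differences, 472 genes above the filter with a pair of probe sets were taken. For day 14 against day 10, deviations of their probe sets from the pair's mean had a robust SD of 0.05, and 95% were below 0.22. The differences of Mcpt4, Cpa3, Tpsb2, Cma1, Fcer1a and Mcpt2 exceeded that and the 0.09 of Tpsab1 did not. Each member has 1 probe set, whose spread is larger than a deviation from a pair's mean. Cma1, Fcer1a and Tpsab1 lay below the filter, where this spread was not measured. This spread is technical and says nothing of the spread between animals.

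Genes for storing and releasing the proteases showed a mixed picture. In the list of granule and amine genes, 17 were measured, of which 8 were higher, 5 lower and 4 equal on day 14 against day 10, with a median of 0.00 and none at 2-fold. Beside this and the lists below, 34.9% of all 19938 genes were higher and 35.6% lower between these days. Serglycin, encoded by Srgn, measured 12.4, 12.9 and 12.3 on days 10, 12 and 14, highest on day 12, and the histidine decarboxylase gene Hdc, whose enzyme makes histamine, measured 8.95, 9.37 and 8.70 with the same peak. Both genes are also active in other immune cells. By contrast, Slc18a2, which encodes a vesicular monoamine transporter, measured 6.05, 6.26 and 6.49, and the serotonin synthesis gene Tph1 measured 6.19, 6.28 and 6.51. The cathepsin G gene Ctsg measured 6.11, 6.26 and 6.37. These 3 genes were among 6 of the 17 that were higher on each later day, the order seen for Mcpt4, while 2 of the 17 were lower on each later day. The 3 differed by at most 0.44, with levels below the filter. Their day 10 values lay near that array's lower quartile of 5.91, where the level may be background. Rab27b, of granule transport, differed by 0.41 between day 14 and day 10, Snap23, of membrane fusion, by −0.34, and the granzyme gene Gzmb by −0.34. The transmembrane tryptase gene Tpsg1, beside Tpsb2 on chromosome 17, differed by 0.02.

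The gene order on chromosome 14 was set beside these values. From Ctsg to Gzmb, 8 further genes of the cluster were measured, and on day 14 against day 10, 3 were higher, 3 lower and 2 equal, between −0.34 and 0.26. None of the 8 reached 2-fold or the level filter, and all but Gzmb stayed at 6.74 or lower. The cluster thus held genes with higher and lower values on the same arrays. Mcpt2 was lower and Mcpt4 higher, with Mcpt9, which was not measured, between them. Mcpt1 and Mcpt8, on either side of this stretch, were equal but below the lower quartile of every array, where the level may be background.

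Among 19 measured surface receptor genes of mast cells, 13 were higher and 6 lower on day 14 against day 10, with a median of 0.06, and 7 were higher on each later day. Of all 19938 genes, 34.9% were higher, 35.6% lower and 12.6% higher on each later day. Only 9 of the 19 reached the level filter, and differences of any size were counted. Mrgprb1, of a family of receptors on mast cells and sensory neurons, measured 5.98, 7.03 and 7.94. Its measured values were 2.06-fold higher on day 12 and 3.89-fold higher on day 14, the one gene of this list at 2-fold. Its day 10 value lay next to the lower quartile of that array, 5.91, so its fold cannot be set beside that of Mcpt4. Mrgprb2, the mast cell receptor for basic secretagogues, measured 6.05, 6.53 and 6.83, a 1.72-fold difference. Neither reached the filter. The integrin gene Itga4 differed by 0.48 and the complement receptor gene C5ar1 by −0.53, and both serve other leukocytes too.

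In the list for IgE receptor signalling, 16 genes were measured, with 8 higher, 7 lower and 1 equal on day 14 against day 10 and a median of 0.01. Ms4a2, the receptor's beta chain, measured 5.80, 5.97 and 6.07, in the same order of days as Fcer1a and as low. Fcer1g, the common gamma chain of many myeloid cells, measured 12.2, 12.0 and 11.7, highest on day 10. The adaptor gene Grap2 differed by 0.53 and the phospholipase gene Plcg2 by 0.25. The measured values of the alpha and beta chains were thus higher and that of the gamma chain lower on day 14. The alpha and beta chains lay below the lower quartile of the day 10 array, 5.91, where the level may be background.

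The list for the Kit ligand and its signalling had 16 measured genes, with 7 higher, 4 lower and 5 equal on day 14 against day 10 and a median of 0.00. Kitl, the ligand itself, held 9.94 on each array, equal like its receptor. Gata2 and Mitf, transcription factor genes needed by mast cells, measured 8.35, 8.35 and 8.43, and 7.24, 7.38 and 7.25. The adaptor gene Dok1 differed by −0.60, the proapoptotic gene Bcl2l11 by −0.62, the phosphatase gene Ptpn6 by 0.23 and Tal1 by 0.19.

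Of 9 measured lipid mediator genes, 6 were higher, 2 lower and 1 equal on day 14 against day 10, with a median of 0.07. Mgst2, a glutathione transferase that can make leukotriene C, measured 8.11, 8.66 and 8.98, a difference of 0.87. The lipoxygenase gene Alox5 differed by 0.48, its activating protein gene Alox5ap by −0.28 and the phospholipase gene Pla2g3 by 0.38. Of 15 measured growth and recruitment factors, 6 were higher, 6 lower and 3 equal, with a median of 0.00. The alarmin gene Il33 measured 11.9, 11.6 and 11.3, Cxcl12 differed by −0.49 and Ccl2 by −0.58, and Ptgs2, the prostaglandin synthase gene, was lower by 1.49. Of 8 measured protease inhibitor genes, 3 were higher, 4 lower and 1 equal, with a median of −0.07. In that list Serpina3n, of the antichymotrypsin family, measured 8.73, 10.1 and 10.5 and was 3.46-fold higher on day 14. Slpi, a leukocyte protease inhibitor, differed by −0.94, the carboxypeptidase inhibitor latexin (Lxn) by −0.75 and A2m by −0.39.

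**Figure D4:**
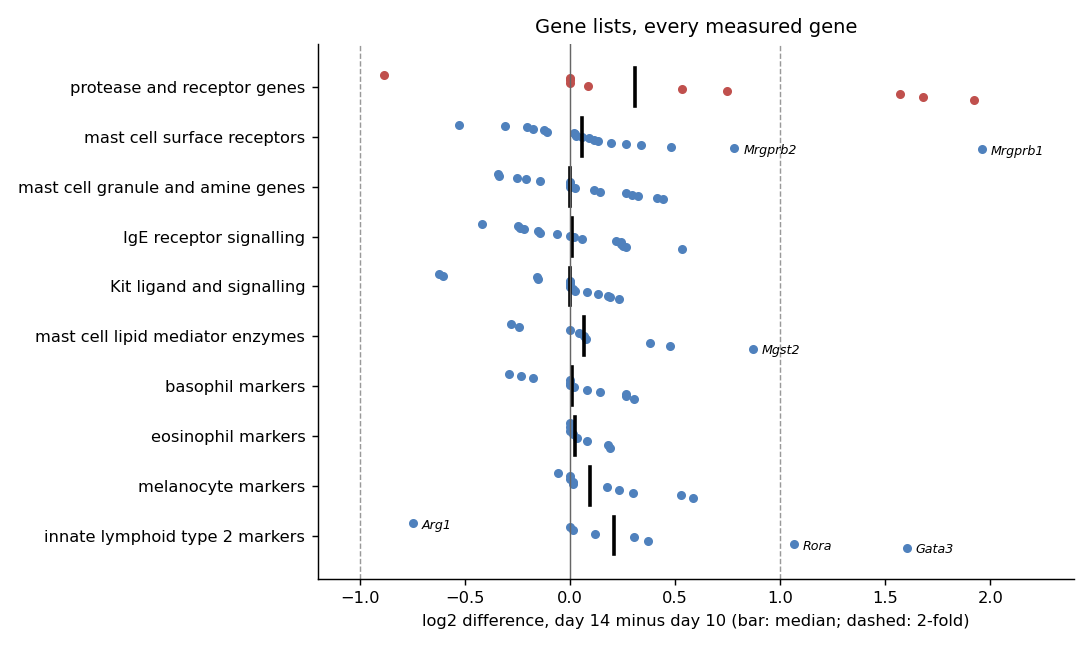
Log2 difference of day 14 minus day 10 (horizontal axis) for the 10 protease and receptor genes (red) and every measured gene of 9 lists (blue), with 1 point per gene; black bars are medians and dashed lines mark 2-fold, and genes of the lists that differed by at least 0.7 are named. Mrgprb1 has the highest value of the 9 lists, 1.96, from a day 10 level near the arrays' lower quartile, and medians of the 9 lists lie between 0.00 and 0.21.

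Several members are also used by other cell types. Of 12 basophil markers, 6 were higher, 3 lower and 3 equal on day 14 against day 10, with a median of 0.01 and median levels of 6.74, 6.83 and 6.61 on the 3 days. Prss34, the basophil protease, measured 6.08, 6.08 and 6.22, and Il4 held 6.25, both low like Mcpt8. Cd200r3 and Il13 differed by 0.27 and 0.30, and Osm by −0.29. Of 8 eosinophil markers, 5 were higher and 3 equal, between 0.00 and 0.19, with Epx at 5.97 on each array. Of 10 melanocyte markers, which share Kit, 7 were higher, 1 lower and 2 equal, with a median of 0.09. Tyr held 5.52, and Tyrp1 and Sox10 differed by 0.53 and 0.59, beside an equal value of Kit. Of 8 markers of type 2 innate lymphoid cells, 6 were higher, 1 lower and 1 equal, with a median of 0.21, led by Gata3 at 1.60 and Rora at 1.07, which keratinocytes also use, while Il5 stood at 5.35 on days 10 and 12 and Arg1 differed by −0.75. The part of these cell types in the members' values was not tested.

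Other tissue and immune genes differed between the same pools. Between day 10 and day 14 the median difference was 0.64 for 13 dendritic cell markers, 0.43 for 13 sebaceous gland genes, 0.42 for 8 genes of nerve and Schwann cells, 0.10 for 10 adipocyte genes and 0.09 for 12 fibroblast genes. It was −0.10 for 14 neutrophil markers, −0.02 for 13 macrophage markers, −0.0022 for 13 genes of leukocytes in general, −0.44 for 12 myofibroblast genes and 0.00 for 13 housekeeping genes. Behind the near-0 values of the macrophage and general leukocyte lists stood higher values on day 12, as for Srgn and Hdc. From day 10 to day 12, 11 of 13 macrophage markers were higher (median 0.29), and from day 12 to day 14, 11 were lower (median −0.20). For the general leukocyte genes, 9 of 13 were higher in the first step (median 0.04) and 12 were lower in the second (median −0.11). Sebaceous glands belong to follicles, and their genes Krt79 and Fa2h measured 10.3, 12.1 and 12.2, and 7.48, 9.73 and 9.42, beside the higher mast cell genes. Whether pools differed in intact skin or in mast cells per area was not tested.

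The genes whose 3 differences lay nearest to those of Cpa3 were ranked among the 9699 genes above the filter that are not predicted genes, chemosensory receptors, small RNAs or antigen receptor segments, by Euclidean distance over the 3 pairs of days. The nearest were Slc46a2 at 0.04, Nlrp10 at 0.08, Pou2f3 at 0.09, Rdh1 at 0.11, Krt23 at 0.14, Atp12a at 0.14, Gata3 at 0.15 and Epcam at 0.15. Mcpt4 ranked 37th at a distance of 0.33 and Tpsb2 76th at 0.50, behind these 8 genes. For Kit, 1312 genes had the same 3 equal values between days, and none was named. These likenesses rest on 3 arrays, and day 14 minus day 10 is the sum of the steps on either side of day 12. With so few values and 9699 genes, unrelated genes can lie close, and whether the named genes share cells with Cpa3 was not tested.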

How the data were processed

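Total RNA (250 ng per pool, per the labels) was hybridised to 3 one-colour arrays, 1 for each day. The authors deposited a table of log2 values, with 1 value for each array and probe set. The log2 scale was taken from the range of 4.37 to 14.1, and the submitters' processing notes list RMA and Partek 6.6, with no role for either. No scanner files were used, so detection is unknown. The number of arrays limits the precision.

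Of 35556 probe sets, the 21789 with 1 symbol were averaged per symbol. Genes were called above the level filter where their maximum over the arrays was at least 8.36, the median of such maxima, which left 9969. Values within 1e-09 were called equal. With 1 array per day no test was possible, and genes were counted at 2-fold. The members and the 21 gene lists, of which 14 genes stand on several, were chosen with earlier results of these data known. Lists were described over every measured gene, without the members. The members were named whatever their values, as were Ms4a2, Fcer1g, Hdc, Kitl, Mitf, Gata2, Srgn, Ctsg, Mrgprb2 and Tpsg1. From each list the 4 genes with the largest day 14 against day 10 difference could be named, with the 8 genes nearest to Cpa3 and the 5 nearest to Kit outside predicted genes, chemosensory receptors, small RNAs and antigen receptor segments. Other genes (Tph1, Prss34, Il4, Epx, Tyr, Il5, Krt5, Krt14, Col1a1 and Col3a1) were chosen after their values were seen. Promoters came from RefSeq and were aligned globally with Biopython 1.88. The counting step was run on simulated data with set differences, which checks the count and not the error of these arrays. Alternatives used limma 3.58.1.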

Additional observations from a re-analysis of the deposited data

How the results depend on the processing

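Tried were 3 scalings (median centring, quantile and cyclic loess), the brightest in place of the mean probe set, probe sets with several symbols added, the level filter dropped or replaced by the 25% of genes with the highest mean, and a threshold of 1.5-fold. No sign of a difference of Mcpt4, Cpa3, Tpsb2, Cma1, Fcer1a or Mcpt2 turned under the 3 scalings. The settings on probe sets could not change a member, since each has 1 probe set and none shares one with another symbol. Day 14 against day 10 ranged from 1.92 to 1.96 for Mcpt4, 1.68 to 1.72 for Cpa3, 1.57 to 1.59 for Tpsb2, 0.72 to 0.76 for Cma1 and −0.89 to −0.88 for Mcpt2. The filter on the top 25% left 1 of the 10 genes, Cpa3, so the medians became its own 1.28, 0.40 and 1.68 for day 12 against day 10, day 14 against day 12 and day 14 against day 10, with 1 gene at 2-fold on the first and the last. With that filter, the genes at least 2-fold higher and lower over all were 55 and 4, 1 and 11, and 88 and 31, in place of 148 and 18, 3 and 36, and 223 and 91. With no filter they were 157 and 26, 11 and 39, and 250 and 102. At 1.5-fold, 3 of the 10 genes (with Tpsb2 added) were higher on day 12 against day 10 and 4 (with Cma1 added) on day 14 against day 10, where 4.17% and 5.27% of genes above the filter were. On day 14 against day 12, 2 (Mcpt4 and Tpsb2) were higher, where 0.321% of genes above the filter were, and 1 (Mcpt2) was lower on day 14 against day 10, where 5.19% were. At that threshold the counts over all genes above the filter were 416 and 163, 32 and 119, and 525 and 517. Medians of related lists moved by more than the spread between probe sets in 47 cases, mostly under the filter on the top 25%, and by less or not at all in 325. Dropping the level filter could not change these medians or those of the members, since both were taken without it, and those cases are among the 325. No replicate could be left out, since each day had 1 array. No paired analysis was possible because each day had a single pool.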
